A study of Mus musculus with 6 samples.

Results

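Calcium channels, exchangers and pumps of the cell surface, and the store sensor that opens some of them, were examined as 10 genes: Cacna1c, Cacna1d, Cacna1g, Cacna1h, Orai1, Stim1, Trpm7, Trpc1, Slc8a1 and Atp2b1. They were matched by symbol, and all 10 were found among the 25241 genes of the deposited tables and passed the filter on low counts, which left 14369 genes. RNA was sequenced from 3 cultures kept for 72 h with cadmium chloride at 0.8 μM and from 3 untreated control cultures, with 37710042 to 41523231 counts per library. All 6 were wild-type primary neural stem cells of passage 3, taken from the hippocampal subgranular zone of mice, where neurons continue to form in adult life. Strain, sex, age and number of animals are not given in the labels, and the replicates are called biological without saying whether they were separate animals or platings, so p-values reflect only how these samples vary, which may be partly technical.

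The cadmium ion has the charge of calcium and nearly its size. It is known to block voltage-gated calcium channels and also to pass through some of them, and receptor-type and store-operated channels, TRPM7 and the sodium-calcium exchanger have been described as further routes into cells. The plasma membrane calcium pump works in the outward direction. In neural progenitors the same proteins carry the calcium signals that go with proliferation and early differentiation. What follows concerns transcript levels, since ion fluxes were not measured.

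Of the 10 genes, Cacna1c, Cacna1h, Trpc1 and Atp2b1 rose with cadmium, Orai1 fell, and Cacna1d, Cacna1g, Stim1, Trpm7 and Slc8a1 did not pass the test (edgeR quasi-likelihood test, adjusted p below 0.05). Leaving out 1 library at a time, 2 to 4 rose, the lowest without cadmium replicate 1 or 2, and 0 to 1 fell, the lowest without cadmium replicate 3 or control replicate 2; the Atp2b1 call was lost in 11 of 15 alternatives. The larger rises were those of 2 voltage-gated channel subunits, Cacna1c by 43.1% and Cacna1h by 38.6%, while Orai1 fell by 13.3%. The test was thus passed by 5 of 10 members, against 45.5% of all genes tested, and a share so near to the background is not a result about these genes. For rises the background was 23.1% of genes (4 of 10 members) and for falls 22.4% (1 of 10). The median log2 fold change, cadmium over control, was 0.04 over the 10 members and -0.01 over all genes tested. The cadmium libraries lay wholly above the control libraries in 4 members, against 28.0% of all genes, and wholly below in 1 member, against 28.3%, together 5 of 10 against 56.3%.

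**Figure D1:**
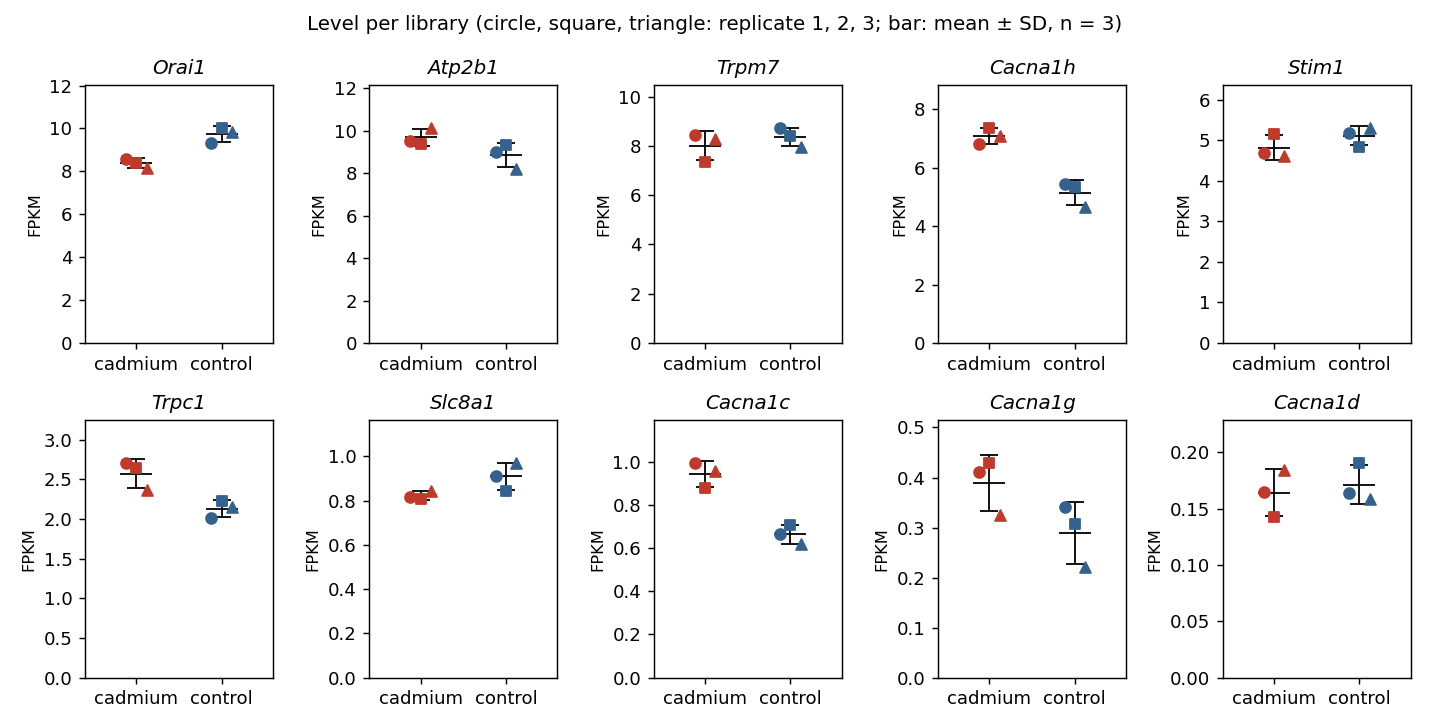
Level of each gene in FPKM in every library, with cadmium on the left and control on the right of each panel, points for replicates 1 to 3 and bars for the mean ± SD (n = 3 per group). Cadmium and control points do not overlap for Cacna1c, Cacna1h, Trpc1, Atp2b1 and Orai1.

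**Figure D2:**
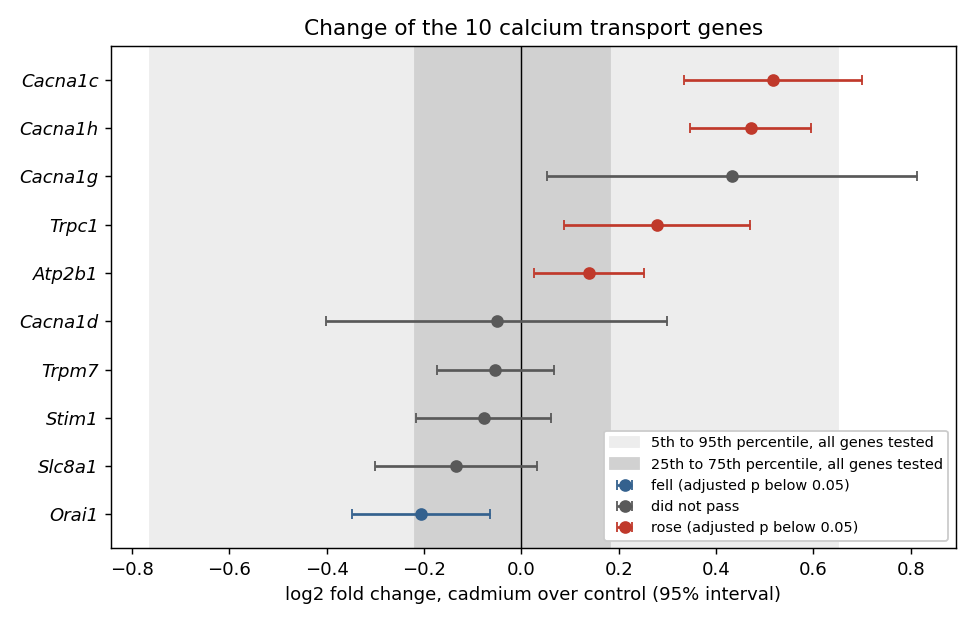
Log2 fold change of cadmium over control with its 95% interval from edgeR, for the 10 genes, over bands that hold the middle of all 14369 genes tested. Cacna1c, Cacna1h, Trpc1 and Cacna1g, the last of which did not pass, lie above the 75th percentile of all genes (0.18) and below the 95th (0.65). Orai1 lies just inside the 25th percentile (-0.22).

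Promoter sequences are shown for 3 of the 5 members that passed, since genes that move together with a metal can be read against the motifs of metal and oxidative stress factors. RefSeq windows of the 250 bases before a start site (build GRCm38.p6, while the counts were made on GRCm39) were matched for 8 of the 10 genes, all but Cacna1g and Cacna1h, 12 windows in all. The 2 windows of Atp2b1 are not printed. Those of Cacna1c (first of 3 starts, chr6:119196410-119196659, minus strand), Trpc1 (chr9:95750349-95750598, minus strand) and Orai1 (chr5:123014824-123015073, plus strand) are printed 5′ to 3′, with capitals for a motif match.
Cacna1c: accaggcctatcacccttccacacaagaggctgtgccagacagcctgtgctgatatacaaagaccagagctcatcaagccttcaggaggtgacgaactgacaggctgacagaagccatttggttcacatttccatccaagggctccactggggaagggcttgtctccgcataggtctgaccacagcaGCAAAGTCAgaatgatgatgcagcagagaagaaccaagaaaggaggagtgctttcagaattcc
Trpc1: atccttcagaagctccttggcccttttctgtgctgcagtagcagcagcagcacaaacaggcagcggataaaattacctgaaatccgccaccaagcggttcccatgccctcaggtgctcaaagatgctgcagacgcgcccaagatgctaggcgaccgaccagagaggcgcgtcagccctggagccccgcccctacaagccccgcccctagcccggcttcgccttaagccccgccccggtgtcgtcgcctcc
Orai1: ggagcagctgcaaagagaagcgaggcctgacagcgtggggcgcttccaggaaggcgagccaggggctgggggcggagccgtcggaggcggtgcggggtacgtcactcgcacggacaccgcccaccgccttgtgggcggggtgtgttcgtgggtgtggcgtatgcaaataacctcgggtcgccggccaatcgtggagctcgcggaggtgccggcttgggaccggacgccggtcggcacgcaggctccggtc
The core of the metal response element bound by MTF1 was searched as TGCACNC or TGCGCNC and the core of the antioxidant response element bound by NRF2 as TGACNNNGC, on both strands, and no match of one overlapped a match of the other. The single match in the printed windows is an antioxidant core on the opposite strand of Cacna1c, with its farthest base 63 bases before the start. It is 1 of 12 member windows with that core, against 10.2% of 32841 windows of all genes. Metal cores were in 3 of the 12 windows, 1 of Cacna1d and 2 of Atp2b1, against 21.4% of all windows. A match is not a binding site, the absence of these letters in a window says nothing of the factor, and gene counts do not tell which start of Cacna1c was used.

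The labelled cell type was checked against markers. The counts of markers that moved stand beside 23.1% of all genes that rose and 22.4% that fell. The summed level of 10 neural stem cell markers, among them Nes and Sox2, was 7130 to 7325 CPM in cadmium and 6422 to 6729 CPM in control libraries, of which 3 rose and 6 fell. The 8 astrocyte markers summed to 3123 to 3284 CPM in cadmium and 5481 to 6532 CPM in control libraries, with 7 falling and 1 rising, and 9 oligodendrocyte lineage markers to 3115 to 3293 CPM in cadmium and 3025 to 3173 CPM in control libraries, with 5 falling and 2 rising of 8 tested. The 10 neuronal markers summed to 607 to 692 CPM in cadmium and 683 to 722 CPM in control libraries, with 2 falling and 0 rising of 9 tested. Most of that sum was Map2, with means of 567 CPM in cadmium and 603 CPM in control libraries. Prox1 (58.7 and 70.5 CPM) and Tubb3 (22.3 and 20.4 CPM) came next. The means of Rbfox3, Snap25, Syt1, Neurod1, Slc17a7 and Stmn2 were at most 2.27 CPM in either group. Microglial markers (5 in the tables) stayed below 1 CPM in sum in every library, at 0.213 to 0.666 CPM in cadmium and 0.366 to 0.510 CPM in control libraries. The 5 endothelial markers summed to 2.15 to 2.53 CPM in cadmium and 2.37 to 3.16 CPM in control libraries, with Cdh5 at 0 in all of them. The 7 mural and fibroblast markers summed to 3.54 to 4.85 CPM in cadmium and 6.17 to 7.58 CPM in control libraries, with 3 falling and 0 rising. The fall of the astrocyte markers moved together with every change given below, and its part in them was not tested. In bulk RNA, fewer cells of a type and less RNA per cell cannot be told apart.

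In level per length, the 10 genes covered a wide range. By mean over the 6 libraries Atp2b1 was highest, with a range of 8.22 to 10.1 FPKM. It was followed by Orai1 at 8.15 to 10.02, Trpm7 at 7.33 to 8.73, Cacna1h at 4.65 to 7.37 and Stim1 at 4.62 to 5.30 FPKM. With both groups pooled, each of these 5 overlapped its neighbour in the order, but some neighbours were apart within a group. In cadmium libraries Atp2b1 lay wholly above Orai1, and Cacna1h wholly above Stim1. In control libraries Orai1 lay wholly above Trpm7, and Trpm7 wholly above Cacna1h. The other neighbours overlapped within a group too. Orai1 had a higher mean than Atp2b1 in control libraries (9.72 against 8.86 FPKM), where their ranges overlapped. Trpc1 at 2.01 to 2.71 FPKM lay clear of Stim1 above it and of Slc8a1 below it, at 0.808 to 0.972 FPKM. Slc8a1 overlapped Cacna1c, at 0.618 to 0.996 FPKM, only with both groups pooled. In control libraries Slc8a1 lay wholly above Cacna1c (0.845 to 0.972 against 0.618 to 0.707 FPKM). In cadmium libraries it lay wholly below (0.808 to 0.845 against 0.880 to 0.996 FPKM). Cacna1g at 0.221 to 0.430 FPKM and Cacna1d at 0.143 to 0.191 FPKM were separate from each other and from the rest. Cacna1h stood at the 49.99th percentile of mean FPKM among all genes tested and Cacna1d at the 7.59th. Counts behind these values ran between 90 for Cacna1g in a control library and 3386 for Atp2b1 in a cadmium library.

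The voltage-gated channels open when the membrane depolarises, and their pore is a single large alpha subunit. Cacna1h and Cacna1g encode pore subunits of low-threshold T-type channels, and Cacna1c and Cacna1d those of L-type channels. Cacna1h (Entrez 58226) was at 6.83, 7.37 and 7.09 FPKM in cadmium replicates 1, 2 and 3, against 5.45, 5.35 and 4.65 FPKM in control replicates 1, 2 and 3. Every cadmium library was above every control library, with control replicate 3 the lowest. The means were 7.10 ± 0.269 FPKM in cadmium and 5.15 ± 0.433 FPKM in control libraries (SD, n = 3 each), and the log2 fold change was 0.47 ± 0.06 (SE, edgeR adjusted p = 1.6e-05). Without control replicate 3 it was 0.41.

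Cacna1c (12288) was at 0.996, 0.880 and 0.955 FPKM in the cadmium libraries and at 0.667, 0.707 and 0.618 FPKM in the control libraries. The antioxidant core is in its printed window only, and its windows 2 and 3 hold neither core. The cadmium and control libraries were again apart, and the gap between them was wider than the spread within either group. Its log2 fold change of 0.52 ± 0.09 (SE, edgeR adjusted p = 0.00021) was the highest of the 10 genes. The changes of Cacna1c and Cacna1h passed in all 15 alternatives.

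The other T-type gene, Cacna1g (12291), was at 0.411, 0.430 and 0.325 FPKM in the cadmium libraries and at 0.341, 0.307 and 0.221 FPKM in the control libraries. Cadmium replicate 3 lay below control replicate 1, so the groups overlapped. The log2 fold change of 0.43 ± 0.18 (SE) did not pass (adjusted p = 0.060), and its 95% interval of 0.05 to 0.81 holds the sizes seen for Cacna1h and Cacna1c. It passed without cadmium replicate 3 (adjusted p = 0.036), without control replicate 1 (0.032) and in 2 other of 14 alternatives (range over its alternatives 0.029 to 0.24).

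Cacna1d (12289), the L-type gene at the lowest level, had 0.165, 0.143 and 0.185 FPKM in the cadmium libraries against 0.164, 0.191 and 0.159 FPKM in the control libraries. The groups overlapped throughout. Its log2 fold change was -0.05 with a 95% interval of -0.40 to 0.30 (adjusted p = 0.83). At 93 to 137 counts per library, a rise of the size seen for Cacna1c was outside the interval, but changes within it were not excluded. The ratio of Cacna1c to Cacna1d in FPKM was 6.03, 6.17 and 5.17 in the cadmium libraries and 4.07, 3.70 and 3.89 in the control libraries.

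Summed over the 10 pore subunit genes of the voltage-gated family, the level was 11.3, 11.7 and 11.2 FPKM in the cadmium libraries and 9.13, 9.09 and 7.97 FPKM in the control libraries. Cacna1h made up 60.4%, 63.0% and 63.2% of that sum in the cadmium libraries and 59.6%, 58.9% and 58.4% in the control libraries, so it was the main pore transcript in both groups. Of 7 pore genes tested, 3 rose, Cacna1c and Cacna1h among them, and 0 fell, against 23.1% and 22.4% of all genes. The median log2 fold change was 0.22. The third was Cacna1a, the pore gene of P/Q-type channels, at 2.20 ± 0.106 FPKM in cadmium and 1.93 ± 0.0780 FPKM in control libraries (0.20 ± 0.07, SE, adjusted p = 0.036). Cacna1a no longer passed when cadmium replicate 1 (adjusted p = 0.13), cadmium replicate 2 (0.083) or control replicate 1, 2 or 3 was left out (0.071, 0.051 and 0.075), with a range of 0.033 to 0.13 over its alternatives.

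The auxiliary subunits, which govern the trafficking and gating of the pore, did not share one direction. Of 12 tested, 3 rose and 3 fell, against 23.1% and 22.4% of all genes. Only 1 fell without cadmium replicate 2 or without control replicate 3. Cacnb2, a cytoplasmic beta subunit gene, rose to 0.551 ± 0.0566 FPKM in cadmium libraries against 0.375 ± 0.0543 FPKM in control libraries (0.56 ± 0.15, SE, adjusted p = 0.0081). Cacna2d3, an extracellular alpha2delta subunit gene, fell (-0.39 ± 0.12, adjusted p = 0.015), a call lost without cadmium replicate 2 (0.070) and without control replicate 3 (0.057; range over its alternatives 0.0084 to 0.070). The remaining 4 that moved belong to the gamma family and encode proteins known mainly as partners of AMPA-type glutamate receptors. Cacng8 (0.51 ± 0.06) and Cacng4 (0.28 ± 0.04) rose, and Cacng7 (-0.46 ± 0.05) and Cacng5 (-0.13 ± 0.04) fell. The Cacng5 call was lost without cadmium replicate 1, 2 or 3 (adjusted p of 0.055, 0.077 and 0.13) and without control replicate 3 (0.064; range over its alternatives 0.020 to 0.13).

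Store-operated entry begins when STIM proteins of the endoplasmic reticulum sense an emptied store and open ORAI channels in the plasma membrane. Orai1 (109305), a pore gene of this route, with neither core in its printed window, was at 8.60, 8.39 and 8.15 FPKM in the cadmium libraries and at 9.30, 10.02 and 9.83 FPKM in the control libraries. All cadmium libraries were below all control libraries. The means were 8.38 ± 0.223 FPKM in cadmium and 9.72 ± 0.374 FPKM in control libraries (SD, n = 3 each) and the log2 fold change was -0.21 ± 0.07 (SE, adjusted p = 0.019). The change no longer passed when cadmium replicate 3 (adjusted p = 0.085) or control replicate 2 was left out (0.065; range over its alternatives 0.0099 to 0.085).

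The sensor gene Stim1 (20866) had 4.67, 5.16 and 4.62 FPKM in the cadmium libraries and 5.18, 4.84 and 5.30 FPKM in the control libraries. The groups overlapped, with cadmium replicate 2 above control replicate 2. Its log2 fold change was -0.08, with a 95% interval of -0.22 to 0.06 (adjusted p = 0.36). The ratio of Orai1 to Stim1 in FPKM was 1.84, 1.62 and 1.76 in the cadmium libraries and 1.79, 2.07 and 1.85 in the control libraries, which overlap.

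Paralogs of both genes moved in the same list, where 4 rose and 3 fell of 8 tested, against 23.1% and 22.4% of all genes. Stim2, the sensor of small losses from the store, rose to 14.3 ± 0.338 FPKM in cadmium against 10.6 ± 0.886 FPKM in control libraries (0.43 ± 0.06, SE, adjusted p = 2.7e-05). Orai2 rose to 2.02 ± 0.0486 FPKM in cadmium against 1.45 ± 0.156 FPKM in control (0.49 ± 0.09). Orai3 fell to 7.16 ± 0.151 FPKM in cadmium against 10.9 ± 0.888 FPKM in control (-0.60 ± 0.08). Saraf, which encodes an inhibitor of store-operated entry, fell (-0.24 ± 0.04), and Septin4 rose (0.44 ± 0.10). Over the whole list, the summed level was 115 to 117 FPKM in cadmium and 127 to 132 FPKM in control libraries, most of it from Saraf.

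Trpm7 (58800) encodes a channel for magnesium, calcium, zinc and other divalent ions that is fused to a kinase, and Trpc1 (22063) a subunit of receptor-operated channels. Trpm7 was at 8.43, 7.33 and 8.27 FPKM in the cadmium libraries and at 8.73, 8.40 and 7.97 FPKM in the control libraries. Cadmium replicate 2 was the lowest of all 6, and the groups overlapped. The log2 fold change was -0.05, with a 95% interval of -0.17 to 0.07 (adjusted p = 0.46).

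Trpc1, whose printed window holds neither core, was at 2.71, 2.64 and 2.37 FPKM in the cadmium libraries and at 2.01, 2.23 and 2.15 FPKM in the control libraries. The cadmium libraries were all higher, though cadmium replicate 3 came close to control replicate 2. The log2 fold change was 0.28 ± 0.09 (SE, adjusted p = 0.020). Trpc1 no longer passed when cadmium replicate 1 (adjusted p = 0.080), cadmium replicate 2 (0.063) or control replicate 1 was left out (0.076; range over its alternatives 0.012 to 0.080).

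Of 11 TRP channel genes tested, 2 rose, Trpc1 being 1 of them, and 1 fell, against 23.1% and 22.4% of all genes. The number rising was 0 without cadmium replicate 1 or control replicate 1 and 1 without cadmium replicate 2. Mcoln1, a lysosomal calcium channel gene, fell (-0.15 ± 0.05, adjusted p = 0.030). Its call was lost without cadmium replicate 1, 2 or 3 (0.092, 0.061 and 0.091) and without control replicate 3 (0.077; range over its alternatives 0.014 to 0.092).

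Slc8a1 and Atp2b1 export calcium, the exchanger by trading it for sodium and the pump by spending ATP, and the exchanger can also run inward. Slc8a1 (20541) was at 0.817, 0.808 and 0.845 FPKM in the cadmium libraries and at 0.911, 0.845 and 0.972 FPKM in the control libraries. Cadmium replicate 3 and control replicate 2 met at the same level. The log2 fold change was -0.13 with a 95% interval of -0.30 to 0.03 (adjusted p = 0.17).

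Atp2b1 (67972) was at 9.54, 9.40 and 10.1 FPKM in the cadmium libraries and at 8.99, 9.35 and 8.22 FPKM in the control libraries. The groups were apart by a narrow margin, between cadmium replicate 2 and control replicate 2. Its log2 fold change of 0.14 ± 0.05 (SE, adjusted p = 0.043) was the smallest that passed among the 10 genes. The call was lost in 11 of 15 alternatives, among them leaving out cadmium replicate 1 (adjusted p = 0.072), cadmium replicate 2 (0.052), cadmium replicate 3 (0.20), control replicate 1 (0.067) or control replicate 3 (0.12; range over its alternatives 0.011 to 0.20).

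**Figure D3:**
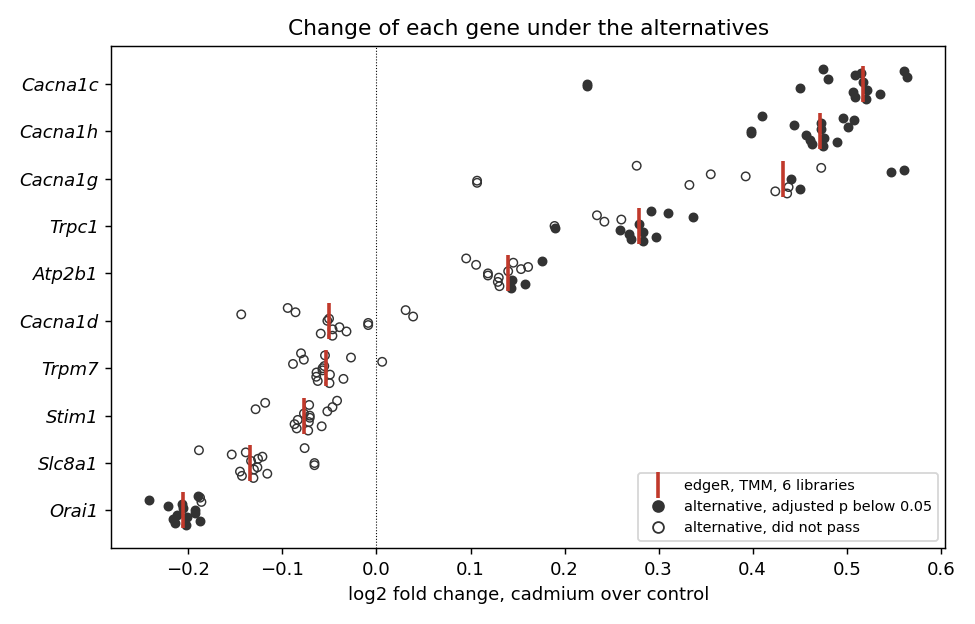
Log2 fold change of cadmium over control for each of the 10 genes in the reported test (red bar) and in each alternative (circles, filled where the adjusted p was below 0.05). All circles of Cacna1c and Cacna1h are filled, and those of Atp2b1 are mostly open.

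Of 7 exchanger genes tested, Slc8a1 among them, 5 fell and 0 rose, against 22.4% and 23.1% of all genes, and the median log2 fold change was -0.45. Slc8a2, the exchanger abundant in brain, fell to 3.48 ± 0.117 FPKM in cadmium against 5.52 ± 0.140 FPKM in control libraries (-0.65 ± 0.06, SE, adjusted p = 1.1e-06). The potassium-dependent exchanger gene Slc24a3 fell to 5.35 ± 0.538 FPKM in cadmium against 11.6 ± 1.225 FPKM in control (-1.11 ± 0.09). Slc24a4 was low in both groups, with 12, 9 and 5 counts in cadmium and 61, 54 and 97 counts in control libraries (-2.95 ± 0.38). Only 3 exchanger genes fell without cadmium replicate 3, without control replicate 2 or without control replicate 3. Among 6 calcium pump genes tested, 3 rose, Atp2b1 among them, and 0 fell, against 23.1% and 22.4% of all genes. The number rising was 2 without cadmium replicate 1, 2 or 3 and without control replicate 1 or 3. Without control replicate 3, 1 fell. Atp2a2, the pump that fills the endoplasmic reticulum, rose to 82.5 ± 1.23 FPKM in cadmium against 69.2 ± 3.89 FPKM in control (0.26 ± 0.04), and its relative Atp2a3 rose at low counts, 43, 41 and 32 in cadmium against 10, 19 and 7 in control libraries (1.74 ± 0.38).

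**Figure D4:**
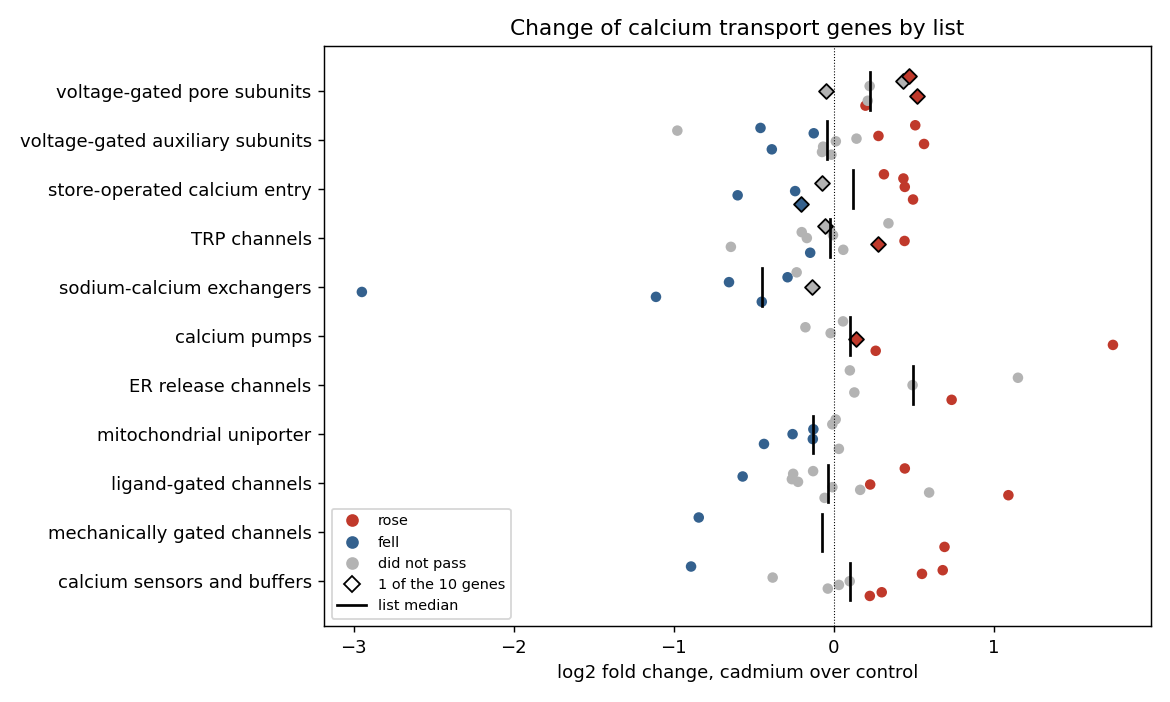
Log2 fold change of cadmium over control for every gene tested in 11 lists of calcium transport genes, with diamonds for the 10 genes described first and a bar at each list's median. The exchangers lie to the left, with a median of -0.45, and the pore subunits to the right, with a median of 0.22.

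Outside the 10, 108 calcium transport genes were in the tables and 76 were tested. Their median log2 fold change was -0.01, the same to 2 decimals as over all genes. Of the 76, 20 rose and 18 fell, against 23.1% and 22.4% of all genes. The counts were 19 and 11 without cadmium replicate 3, and 20 and 11 without control replicate 3. Among release channels of the endoplasmic reticulum, 2 rose without cadmium replicate 2, control replicate 2 or control replicate 3. With all 6 libraries, 1 of 5 rose and 0 fell, against 23.1% and 22.4% of all genes. The gene was Itpr1, an inositol trisphosphate receptor gene, at 1.77 ± 0.0570 FPKM in cadmium and 1.07 ± 0.166 FPKM in control libraries (0.74 ± 0.10, SE, adjusted p = 3.1e-05).

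Genes of the mitochondrial uniporter, which takes calcium into mitochondria, fell in 4 and rose in 0 of 7 cases. Of all genes, 22.4% fell and 23.1% rose. The number that fell was 2 without cadmium replicate 1 or 2, and 1 without cadmium replicate 3, control replicate 2 or control replicate 3. The pore gene Mcu itself, named after its values were seen, was at 11.6 ± 0.192 FPKM in cadmium and 11.4 ± 0.414 FPKM in control libraries (0.03 ± 0.05, adjusted p = 0.65). Mcub, a dominant negative relative of the pore, fell (-0.44 ± 0.14, adjusted p = 0.022), a call lost without cadmium replicate 1 or 3 (0.060 and 0.071) and without control replicate 2 or 3 (0.071 and 0.080; range over its alternatives 0.0045 to 0.080). Mcur1, a regulator of the uniporter, fell (-0.13 ± 0.05, adjusted p = 0.034), a call lost without cadmium replicate 2 or 3 (0.13 and 0.11) and without control replicate 2 or 3 (0.060 and 0.057; range over its alternatives 0.022 to 0.13).

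Mechanically gated and ligand-gated calcium-permeable channels were further routes. Piezo1 rose to 7.22 ± 0.0615 FPKM in cadmium against 4.50 ± 0.601 FPKM in control libraries (0.69 ± 0.07, SE, adjusted p = 8.1e-06), and Piezo2 fell to 0.323 ± 0.0441 FPKM in cadmium against 0.583 ± 0.0913 FPKM in control (-0.84 ± 0.15). Of 12 ligand-gated genes tested, 3 rose and 1 fell, against 23.1% and 22.4% of all genes. The ATP-gated channel gene P2rx7 rose to 16.1 ± 0.151 FPKM in cadmium against 11.9 ± 0.113 FPKM in control (0.44 ± 0.04), and P2rx4 fell to 4.91 ± 0.140 FPKM in cadmium against 7.32 ± 0.505 FPKM in control (-0.57 ± 0.08). The NMDA receptor subunit genes Grin2a (1.09 ± 0.29, at 28 to 79 counts) and Grin3a (0.23 ± 0.08) also rose. On log2(FPKM + 1) the call of Grin2a was lost (adjusted p = 0.18; range over its alternatives 0.00061 to 0.18). The Grin3a call (adjusted p = 0.030) was lost without cadmium replicate 1 or 3 (0.085 and 0.13) and without control replicate 1 or 2 (0.12 and 0.060; range over its alternatives 0.015 to 0.13).

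Calcium sensors and buffers rose in 4 and fell in 1 of 9 cases, against 23.1% and 22.4% of all genes. The neuronal calcium sensor genes Ncs1 (0.68 ± 0.08, SE) and Hpcal1 (0.55 ± 0.06) and the calmodulin gene Calm2 (0.30 ± 0.05) were among those that rose. Pvalb, which encodes the buffer parvalbumin, fell to 1.94 ± 0.267 FPKM in cadmium against 3.62 ± 0.331 FPKM in control libraries (-0.89 ± 0.17).

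Genes were sought whose pattern over the 6 libraries was most like that of Cacna1h and of Orai1, the members with the smallest p among those that rose and those that fell. Likeness was measured as the root mean square difference of log2 CPM profiles centred on their own mean. Nearest to Cacna1h were the thymidylate synthase gene Tyms (0.0195), the cadherin gene Cdh22 (0.0214) and the histone chaperone gene Set (0.0220), which rose by 0.48, 0.45 and 0.51 on the log2 scale. Nearest to Orai1 were Vps39, a gene of endosome to lysosome transport (0.0155), the mitochondrial ribosomal protein gene Mrpl24 (0.0165) and the ubiquitin ligase adaptor gene Fbxw5 (0.0178), with log2 fold changes of -0.21, -0.22 and -0.19. With 14369 genes and only 6 libraries in 2 groups, such close profiles describe these libraries and nothing more.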

How the data were processed

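The deposited table of counts holds whole reads per gene, made by the authors, and the deposited FPKM table scales them by gene length and library total. Each FPKM value equalled its count over the library total and 1 length per gene (largest relative deviation 1.63e-08). The submitters' processing notes list the build GRCm39 and, without roles, DESeq2 1.22.2, HTSeq 0.11.2, HISAT2 2.1.0 and fastp 0.20.1. Annotation and strand setting are not given in the sources used here. Without strand, reads in exon bases that a member shares with an opposite-strand gene cannot be told apart. By GENCODE M21 Cacna1d shares 589 bases with Chdh, Cacna1h 158 with Tpsg1 and Orai1 7 with Gm2479. Slc8a1 shares 8 bases with Gm11096 and 296 with an antisense gene. Whether reads in shared bases were counted or set aside is not given.

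Genes that passed filterByExpr (count of at least 10, total of at least 15) were tested with the robust quasi-likelihood F test of edgeR 4.0.16 (R 4.3.3), with TMM factors and no term but group. Two-sided p-values were adjusted for all 14369 genes tested (Benjamini-Hochberg). SE is the absolute log2 fold change over the square root of F. CPM are counts scaled to a common TMM-adjusted total. Alternatives were 2 other scalings, 2 other filters, DESeq2 1.42.0, limma 3.58.1 on log2(FPKM + 0.1) and log2(FPKM + 1), a replicate block and leaving out each library. The limma test on log2(FPKM + 1) was also run without the filter on low counts, over all genes with any FPKM above 0. No pair of replicates agreed within sampling noise (chi-square per degree of freedom 3.56 to 13.6).

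The 10 members and the lists were chosen with earlier results of these data known. All members are named. From each wider list up to 3 genes in each direction are named, those with the smallest p. Some genes that this rule would name are not reported here. The nearest profiles were sought for the member with the smallest p in each direction among genes with established names. Of the list symbols outside the members, 108 of 111 were matched, and the others were not analysed here.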

Additional observations from a re-analysis of the deposited data

How the results depend on the processing

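Over the 10 genes and their alternatives, 148 values were computed. Of these, 127 kept direction and side of the threshold or stayed without a call, 17 lost the call, 4 gained it and 0 were reversed with a call. The 17 belong to Atp2b1 (11), Trpc1 (4) and Orai1 (2), and the 4 to Cacna1g. Cacna1d and Cacna1g gave no value with at least 5 CPM in 3 libraries. Without a call in either case, Trpm7 was at 0.01 without cadmium replicate 2, and Cacna1d at 0.04 without cadmium replicate 2 and 0.03 without control replicate 2. The number of members that rose was 2 where log2(FPKM + 1) was tested without the filter on low counts. It was 2 to 4 on leaving out each library, the lowest when cadmium replicate 1 or 2 was absent. Falls among members numbered 0 to 1, the lowest without cadmium replicate 3 or control replicate 2. Of the wider genes, 11 to 18 fell on leaving out each library, with 11 without cadmium replicate 3 and 11 without control replicate 3. On log2(FPKM + 1) the log2 fold change of Cacna1c was 0.22 and that of Cacna1g 0.11, since this scale shrinks changes of low genes.

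The replicate numbers were tried as a block. Deviations from the group mean had correlations of 0.0234, 0.0517 and -0.0105 between same-numbered libraries. Cadmium replicates 1 and 2 correlated best with their same-numbered control, and cadmium replicate 3 with control replicate 1 (0.0284). Such small correlations of deviations from means of 3 libraries cannot tell whether same-numbered libraries share an animal or a plating. With the replicate block 4 members rose and 1 fell, and 3317 and 3192 of all genes, against 3313 and 3221 without it. Under it Cacna1g had an adjusted p of 0.033 and Atp2b1 of 0.053. Depth limits what can be said of Cacna1d and Cacna1g, at 90 to 164 counts per library.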

Other observations

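The deposited annotation places 8 of the 10 genes, all but Trpm7 and Trpc1, in the Calcium signaling pathway. That pathway had 244 genes in the tables, of which 165 were tested. Of the 165, 47 rose and 42 fell, against 23.1% and 22.4% of all genes. The median log2 fold change over the 165 was 0.00, where all genes tested had -0.01. Of the calcium store genes outside the lists' named members, Stimate, which encodes a partner of STIM1 at junctions of the endoplasmic reticulum and plasma membrane, rose to 4.23 ± 0.129 FPKM in cadmium libraries against 3.43 ± 0.0346 FPKM in control libraries (0.31 ± 0.07, SE, edgeR adjusted p = 0.0033). It was chosen after its values were seen.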
